A study of Oryza sativa with 8 samples.

Results

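The genes described here encode the SPX proteins, their partner PHR2 and the regulator PHO2, which together form the core of phosphate signalling in rice (Oryza sativa). They were chosen by 10 locus IDs, and all 10 are rows of the 36850 in the count table, 8 of them with enough counts to be tested among 20690 tested genes. Transcripts were measured by RNA sequencing in the second leaf from the top, taken from plants in the field at early heading at about 10 in the morning. The comparison set 4 libraries of WT against 4 of mEmBP-OE-4. WT is the wild type, and mEmBP-OE-4 is a single rice line overexpressing the bZIP transcription factor mEmBP-1a, which comes from maize. The labels state neither the cultivar, nor the promoter that drives the transgene, nor whether replicates are separate plants, so p-values measure the spread between these libraries only, which may be technical.

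Plants hold phosphate within narrow limits because it is needed for nucleic acids, membranes and the sugar phosphates of photosynthesis. PHR2 is a MYB-type transcription factor that switches on the genes of the phosphate starvation response. SPX proteins bind inositol pyrophosphates, whose level follows phosphate supply, and in the bound state keep PHR2 off its targets. The SPX-MFS proteins join an SPX domain to a transporter of the major facilitator family and carry phosphate across the vacuolar membrane, and PHO2 is a ubiquitin-conjugating enzyme that lowers the amount of phosphate transporters.

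In mEmBP-OE-4 the SPX-MFS1 transcript fell to 66.7% of its WT level. SPX1 rose 1.79-fold, and SPX-MFS3 rose 1.28-fold but was lower than in WT when libraries were scaled by their totals alone. On library totals alone neither SPX1 nor SPX-MFS3 was called. Both calls were also lost without any 1 of the WT replicates and without mEmBP-OE-4 replicate 2 or 4, as given with each gene. PHR2, SPX2, SPX4, SPX-MFS2 and PHO2 did not pass the main test, though SPX-MFS2 was called lower with the replicate number as a block. SPX3 and SPX5 were at or near 0. In the main test 2 of 8 tested genes were called higher, where 20.1% of all tested genes were, and 1 was called lower, where 19.1% were. In either direction 3 of 8 were called, against 39.2% of all tested genes. These shares are close to the background, so the number of calls is no result about this set. The median log2 fold change was 0.13 over the 8 genes and 0.00 over all tested genes.

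Libraries held 35627524 to 50800180 counts. Levels below are CPM, the counts of a gene relative to all counts of its library, on library sizes scaled by TMM, a method that lines up the bulk of the genes between libraries. TMM factors were 1.11 to 1.28 in WT and 0.741 to 1.01 in mEmBP-OE-4, lowest in mEmBP-OE-4 replicate 2. Scaling by library totals alone moved the median of all tested genes from 0.00 to -0.47 on the log2 scale, and a value on that scale is read against this shift. All 8 loci listed as leaf markers (genes of photosynthesis) were present. Their summed level was 60996.5 to 80344.6 CPM among WT libraries and 80303.9 to 133647 CPM in mEmBP-OE-4, so the groups overlap slightly. Most of the sum came from a single locus, with means of 42773.9 and 52679.3 CPM, which was not called (adjusted p = 0.350, edgeR). Of the 8 loci 6 were called higher, against 20.1% of all tested genes. On library totals alone 5 were called higher, against 8.47%. The lists for shoot meristem, root and seed storage hold only 1 locus each, and these loci reached at most 21 counts in a library. The 6 loci for floral organs summed to 7.72 to 13.5 CPM among WT libraries and 7.36 to 13.1 CPM in mEmBP-OE-4. Most of that sum came from 1 locus, with means of 9.50 and 9.36 CPM. All marker IDs were written from general knowledge. Whether the leaf marker difference has a part in the results below was not tested. In whole leaves, fewer cells of a type and less RNA per cell cannot be told apart.

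**Figure D1:**
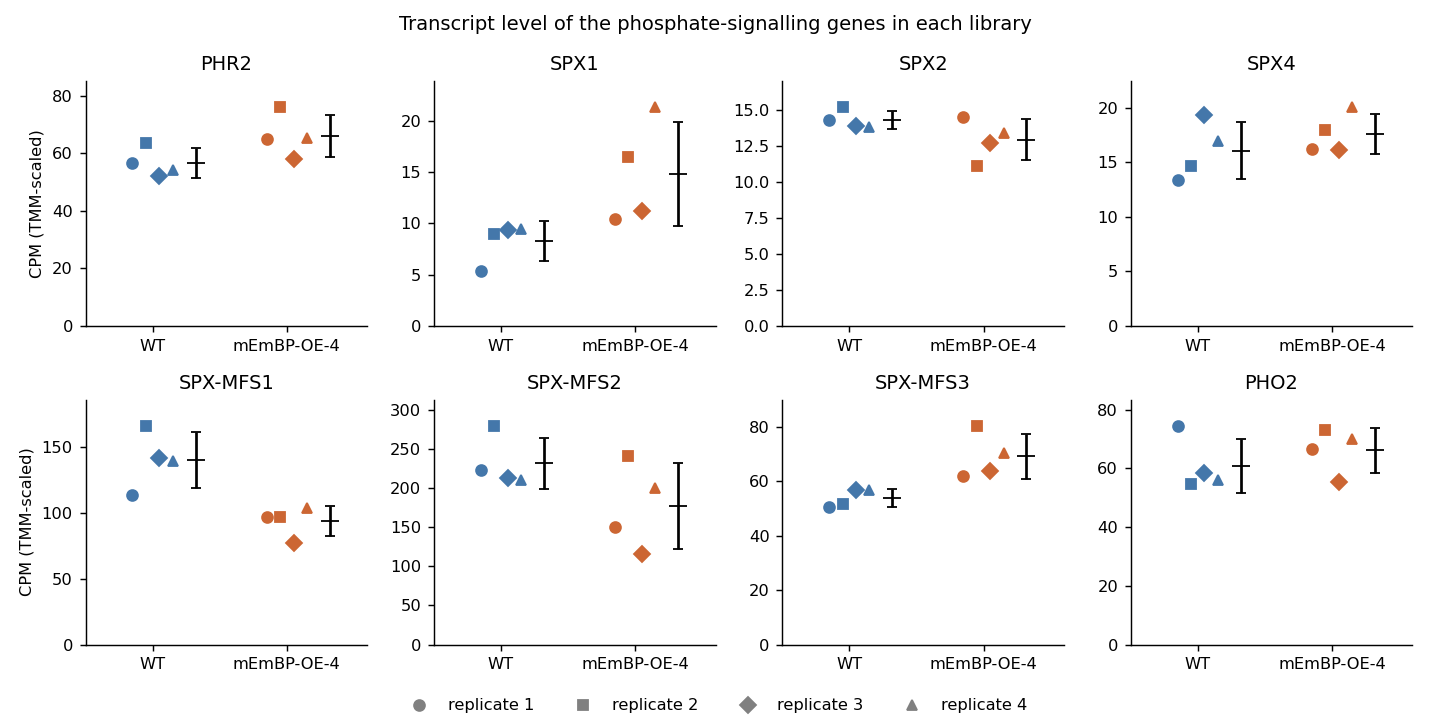
Each panel plots 1 gene, with the level in CPM on TMM-scaled library sizes on the y axis (starting at 0) and the 2 groups on the x axis. Symbols are the 4 replicates, and the black bar is the mean with its SD. The groups do not overlap for SPX1, SPX-MFS1 and SPX-MFS3, but on library totals alone they overlap for SPX1 and SPX-MFS3, and SPX-MFS3 is then lower on average in mEmBP-OE-4.

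PHR2 (Os07g0438800, on chromosome 7 by its ID), the activator on which the SPX proteins act, was at 56.6, 63.8, 52.2 and 54.1 CPM in WT replicates 1 to 4. It was at 64.9, 76.0, 58.2 and 65.4 CPM in mEmBP-OE-4 replicates 1 to 4. The mEmBP-OE-4 library was the higher in all 4 same-numbered pairs, but WT replicate 2 lay above mEmBP-OE-4 replicate 3, so the groups overlap. The means were 56.7 ± 5.06 and 66.1 ± 7.39 CPM (SD, n = 4), and the log2 fold change was 0.22 (SE 0.11). It did not pass the quasi-likelihood F test of edgeR, with a Benjamini-Hochberg adjusted p of 0.144. Under library totals alone the log2 fold change was -0.26, above the -0.47 of all genes, and it was not called there either (adjusted p = 0.112, edgeR).

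SPX1 (Os06g0603600, on chromosome 6 by its ID) encodes a nuclear SPX protein that inhibits PHR2 when phosphate is ample and is itself induced in phosphate-starved rice. Its level was 5.39, 8.96, 9.39 and 9.43 CPM in WT replicates 1 to 4. In mEmBP-OE-4 replicates 1 to 4 it was 10.4, 16.4, 11.2 and 21.3 CPM. Each mEmBP-OE-4 library lay above each WT library, with a spread in mEmBP-OE-4 wider than in WT. The means were 8.29 ± 1.95 and 14.8 ± 5.08 CPM (SD, n = 4), and the log2 fold change was 0.84 (SE 0.26, Benjamini-Hochberg adjusted p = 0.0305, edgeR). The call was lost without any 1 of the 4 WT replicates and without mEmBP-OE-4 replicate 2 or 4, with adjusted p of 0.0526 to 0.0842 (edgeR). In those fits the log2 fold change was lowest, at 0.60, without mEmBP-OE-4 replicate 4. It was 0.67 without WT replicate 1, 0.77 without mEmBP-OE-4 replicate 2, 0.87 without WT replicate 2 and 0.90 without WT replicate 3 or 4. Scaled by library totals alone, SPX1 had a log2 fold change of 0.33 and was not called (adjusted p = 0.199, edgeR).

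SPX2 (Os02g0202200, on chromosome 2 by its ID), which acts redundantly with SPX1 as a nuclear inhibitor of PHR2, was at 14.3, 15.2, 13.9 and 13.8 CPM in WT replicates 1 to 4. The mEmBP-OE-4 replicates 1 to 4 held 14.5, 11.1, 12.7 and 13.4 CPM. Only mEmBP-OE-4 replicate 1 lay within the WT range, and the other 3 lay below it. WT libraries varied little, with a coefficient of variation of 4.37%, against 23.5% for SPX1 in the same libraries. The means were 14.3 ± 0.626 and 12.9 ± 1.42 CPM (SD, n = 4), giving a log2 fold change of -0.14 (SE 0.11) that did not pass the test (Benjamini-Hochberg adjusted p = 0.322, edgeR). On library totals alone SPX2 was called lower, at -0.60 (SE 0.18, adjusted p = 0.0178, edgeR), near the -0.47 of all genes.

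SPX4 (Os03g0827500, on chromosome 3 by its ID) holds PHR2 in the cytoplasm and is broken down when phosphate runs short. It was at 13.4, 14.7, 19.3 and 16.9 CPM in WT replicates 1 to 4. The level in mEmBP-OE-4 replicates 1 to 4 was 16.3, 18.0, 16.1 and 20.1 CPM. The groups overlap over most of their range. The means were 16.1 ± 2.62 and 17.6 ± 1.83 CPM (SD, n = 4), with a log2 fold change of 0.13 (SE 0.14, Benjamini-Hochberg adjusted p = 0.466, edgeR). The sign turned with library totals alone, where SPX4 was called lower at -0.34 (adjusted p = 0.0485, edgeR), above the -0.47 of all genes.

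SPX3 (Os10g0392600, on chromosome 10 by its ID) and SPX5 (Os03g0406100, on chromosome 3 by its ID) encode small SPX proteins that also repress PHR2 and are induced by phosphate starvation in rice. SPX3 had 0 counts in each of the 8 libraries, which allows at most 0.0492 to 0.10 CPM per library, taking 3 counts as the limit. SPX5 had 1, 0, 0 and 0 counts in WT replicates 1 to 4. It had 6, 3, 1 and 0 counts in mEmBP-OE-4 replicates 1 to 4. The groups overlap at 0 and 1 counts, and neither gene passed the filter on low counts. Pooled over libraries, the ratio of SPX5 in mEmBP-OE-4 to WT was 13.1, with an exact 95% interval of 1.86 to 567 that covers counting error only. Over the libraries the difference in CPM gave a two-sided exact permutation p of 0.143, where 0.0286 is the smallest that 4 against 4 allows. With no filter SPX5 was tested too. It was then higher at an unadjusted p under 0.05 but did not pass with adjustment (edgeR).

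SPX-MFS1 (Os04g0573000, on chromosome 4 by its ID), a vacuolar phosphate transporter whose messenger RNA is a target of the phosphate-responsive microRNA miR827, was at 114, 166, 142 and 139.8 CPM in WT replicates 1 to 4. It was at 96.7, 96.8, 77.1 and 103 CPM in mEmBP-OE-4 replicates 1 to 4. Every mEmBP-OE-4 library lay below every WT library, with WT replicate 1 and mEmBP-OE-4 replicate 4 the closest to each other. The means were 140.3 ± 21.5 and 93.5 ± 11.4 CPM (SD, n = 4), and the log2 fold change was -0.59 (SE 0.14, Benjamini-Hochberg adjusted p = 0.00989, edgeR). SPX-MFS1 was called lower under all 19 alternative settings tried, with log2 fold changes of -1.06 to -0.50 and adjusted p of 0.000443 to 0.0277. It was the only 1 of the 8 tested genes for which this held. The settings share libraries, and the share of all tested genes that stayed called under each of them was not computed. The value of -1.06 came from library totals alone, where the median of all genes was -0.47.

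SPX-MFS2 (Os02g0678200, on chromosome 2 by its ID), also a vacuolar phosphate transporter and a target of miR827, was at 224, 280.2, 214 and 211 CPM in WT replicates 1 to 4. It was at 151, 242, 116 and 200.3 CPM in mEmBP-OE-4 replicates 1 to 4. In each group replicate 2 was the highest, and mEmBP-OE-4 replicate 2 lay within the WT range while the other 3 lay below it. The means were 232 ± 32.5 and 177 ± 55.0 CPM (SD, n = 4), giving a log2 fold change of -0.39 (SE 0.22) that did not pass (Benjamini-Hochberg adjusted p = 0.179, edgeR). With the replicate number as a block it was called lower, at -0.43 (SE 0.15, adjusted p = 0.0368, edgeR), which made 2 genes lower, against 24.1% of all tested genes in that fit. It was also called lower with library totals alone, at -0.90 (adjusted p = 0.00253, edgeR).

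SPX-MFS3 (Os06g0129400, on chromosome 6 by its ID), the third member of this vacuolar transporter family, was at 50.7, 51.6, 56.7 and 56.7 CPM in WT replicates 1 to 4. It was at 62.0, 80.5, 63.9 and 70.4 CPM in mEmBP-OE-4 replicates 1 to 4. The groups do not overlap, and the highest library, mEmBP-OE-4 replicate 2, is also the library with the lowest TMM factor. The means were 53.9 ± 3.22 and 69.2 ± 8.35 CPM (SD, n = 4), giving a log2 fold change of 0.36 (SE 0.11, Benjamini-Hochberg adjusted p = 0.0266, edgeR). As for SPX1, the call was lost without any 1 of the WT replicates and without mEmBP-OE-4 replicate 2 or 4, with log2 fold changes of 0.27 to 0.38 and adjusted p of 0.0531 to 0.0763 (edgeR). Scaled by library totals alone the log2 fold change turned to -0.13 (adjusted p = 0.286, edgeR), above the -0.47 of all genes.

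**Figure D2:**
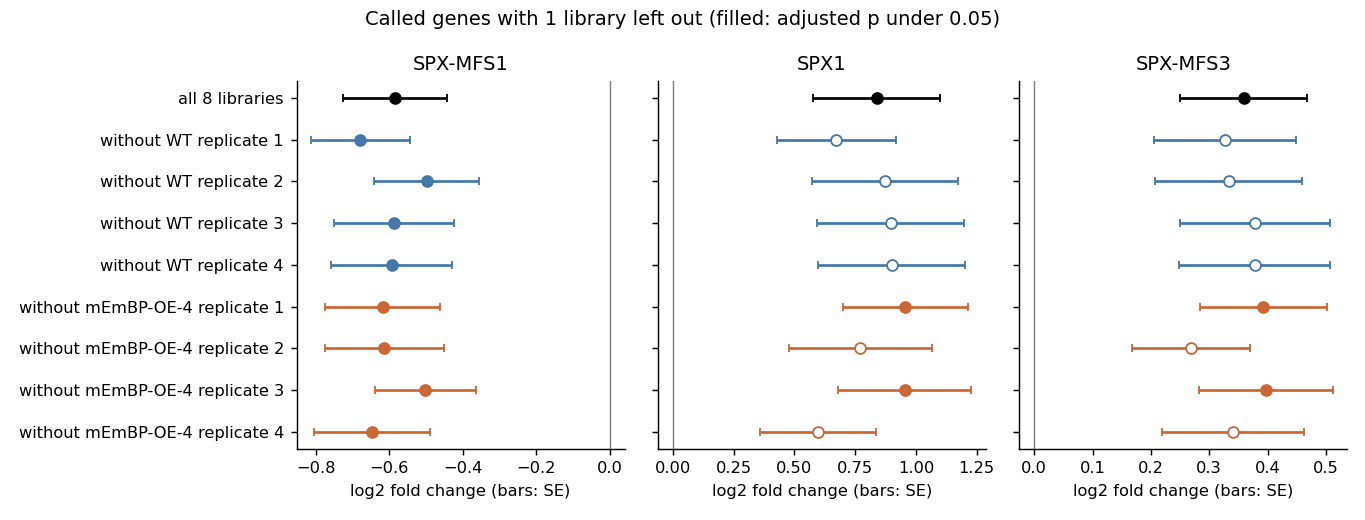
Log2 fold change of the 3 called genes, mEmBP-OE-4 against WT, on the x axis (each panel has its own scale), with all 8 libraries and with each library left out in turn on the y axis. Bars are SE and filled points passed an adjusted p of 0.05. SPX-MFS1 stays called in all 8 fits, whereas SPX1 and SPX-MFS3 pass only without mEmBP-OE-4 replicate 1 or 3.

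PHO2 (Os05g0557700, on chromosome 5 by its ID), whose messenger RNA is cleaved under miR399 when phosphate is scarce, was at 74.5, 54.7, 58.4 and 56.1 CPM in WT replicates 1 to 4. It was at 66.5, 72.9, 55.5 and 70.2 CPM in mEmBP-OE-4 replicates 1 to 4. The highest value of all was that of WT replicate 1, and the groups overlap over nearly their whole range. The means were 60.9 ± 9.21 and 66.3 ± 7.67 CPM (SD, n = 4), giving a log2 fold change of 0.12 (SE 0.13, Benjamini-Hochberg adjusted p = 0.497, edgeR). It was -0.37 with library totals alone and was not called (adjusted p = 0.0783, edgeR).

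Across the 8 tested genes, the groups did not overlap for 3, SPX1, SPX-MFS1 and SPX-MFS3, where 38.5% of all tested genes do not overlap. On library totals alone the groups overlap for SPX1 and SPX-MFS3 and do not for SPX2, SPX4, SPX-MFS1 and SPX-MFS2, where 48% of all tested genes do not overlap. The direction of change depended on scaling for PHR2, SPX4, SPX-MFS3 and PHO2. With library totals alone no gene of the set was called higher by edgeR, either with adjustment or at an unadjusted p under 0.05, where 8.47% of all tested genes were called higher. In that fit 4 were called lower, SPX2, SPX4, SPX-MFS1 and SPX-MFS2, where 43.1% of all tested genes were. DESeq2, with its own size factors, called 2 higher and 1 lower, where it called 22.9% of all tested genes higher and 21% lower. The same counts came from limma-voom on TMM-scaled counts, where 19.9% were called higher and 19.7% lower.

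**Figure D3:**
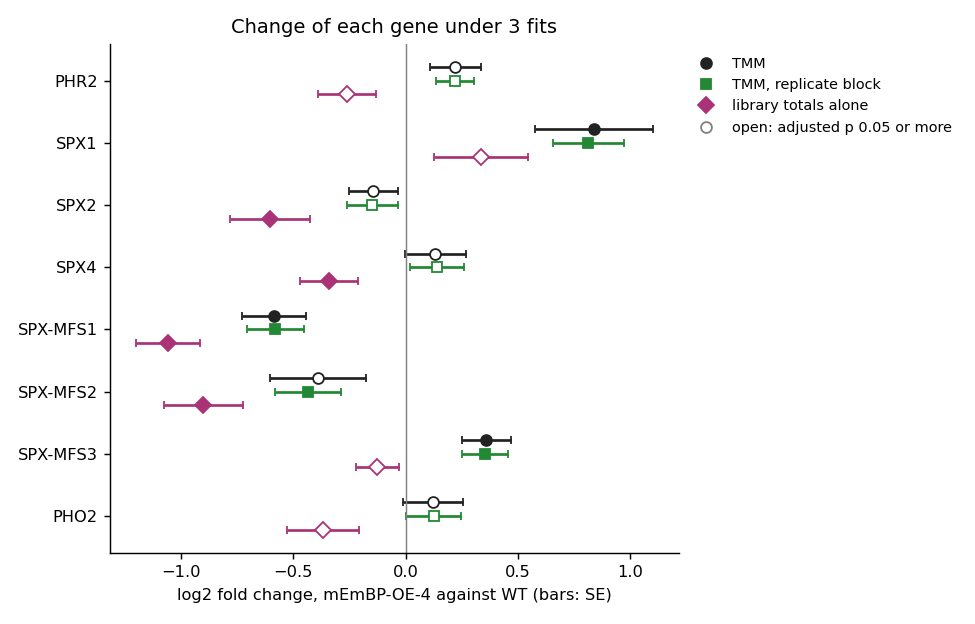
Log2 fold change of the 8 tested genes, mEmBP-OE-4 against WT, on the x axis under 3 fits (TMM, TMM with the replicate number as a block, library totals alone). Bars are SE and filled symbols have an adjusted p under 0.05. The values with library totals lie to the left of the others for every gene and cross 0 for PHR2, SPX4, SPX-MFS3 and PHO2, while SPX-MFS1 is filled and below 0 in all 3.

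Ratios of read counts within a library need no scaling between libraries and were taken as a description, with no test. They are not corrected for transcript length, so only their change between libraries can be read. The number of SPX-MFS1 reads per PHR2 read was 2.0, 2.61, 2.71 and 2.58 in WT replicates 1 to 4. In mEmBP-OE-4 replicates 1 to 4 it was 1.49, 1.27, 1.32 and 1.58. The ratio was lower in every mEmBP-OE-4 library, with means of 2.48 ± 0.319 and 1.42 ± 0.143 (SD, n = 4). SPX-MFS2 reads per PHR2 read likewise did not overlap between groups, at 3.89 to 4.39 in WT and 2.0 to 3.18 in mEmBP-OE-4. SPX2 reads per PHR2 read were lower as well, at 0.238 to 0.266 in WT and 0.146 to 0.224 in mEmBP-OE-4. In CPM with TMM the groups overlap for SPX2 and SPX-MFS2. PHR2, though not called, had a log2 fold change of 0.22 there, which lowers each ratio to it. The groups were thus apart for 3 of 7 ratios to PHR2, while 36.3% of all tested genes had a ratio to PHR2 that did not overlap, so this share is near the background.

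The remaining ratios to PHR2 overlapped between the groups. SPX1 reads per PHR2 read were 0.0952 to 0.180 in WT and 0.160 to 0.326 in mEmBP-OE-4, where only mEmBP-OE-4 replicate 1 lay below the highest WT library. For SPX4 the ranges were 0.230 to 0.370 and 0.237 to 0.307. For SPX-MFS3 they were 0.808 to 1.09 and 0.955 to 1.10, and for PHO2 0.857 to 1.32 and 0.953 to 1.07. For these 3 genes the WT and mEmBP-OE-4 libraries cannot be separated by their proportion to PHR2.

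Ratios within the families were taken in the same way. SPX-MFS1 reads per SPX-MFS3 read were 2.24, 3.22, 2.5 and 2.47 in WT replicates 1 to 4. They were 1.56, 1.20, 1.21 and 1.47 in mEmBP-OE-4 replicates 1 to 4. The means were 2.61 ± 0.428 and 1.36 ± 0.183 (SD, n = 4). That the groups are apart here adds nothing to the levels, since with TMM SPX-MFS1 lay wholly lower and SPX-MFS3 wholly higher in mEmBP-OE-4, and no test of a difference between the genes was run. SPX-MFS2 over SPX-MFS3 was also lower, 3.72 to 5.43 in WT and 1.82 to 3.0 in mEmBP-OE-4, whereas SPX-MFS1 over SPX-MFS2 overlapped at 0.508 to 0.663 and 0.401 to 0.663. Among the PHR2 inhibitors, SPX1 over SPX2 was 0.377 to 0.681 in WT and 0.714 to 1.59 in mEmBP-OE-4. SPX1 over SPX4 was 0.404 to 0.610 in WT and 0.637 to 1.06 in mEmBP-OE-4. Both ratios were higher in each mEmBP-OE-4 library than in any WT library, but SPX1 itself already lay wholly higher with TMM. SPX2 over SPX4 overlapped, at 0.719 to 1.07 in WT and 0.619 to 0.892 in mEmBP-OE-4. The share of all tested genes apart in such ratios was not computed, while 38.5% were apart in CPM. All these pairs were chosen after the values were seen.

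**Figure D4:**
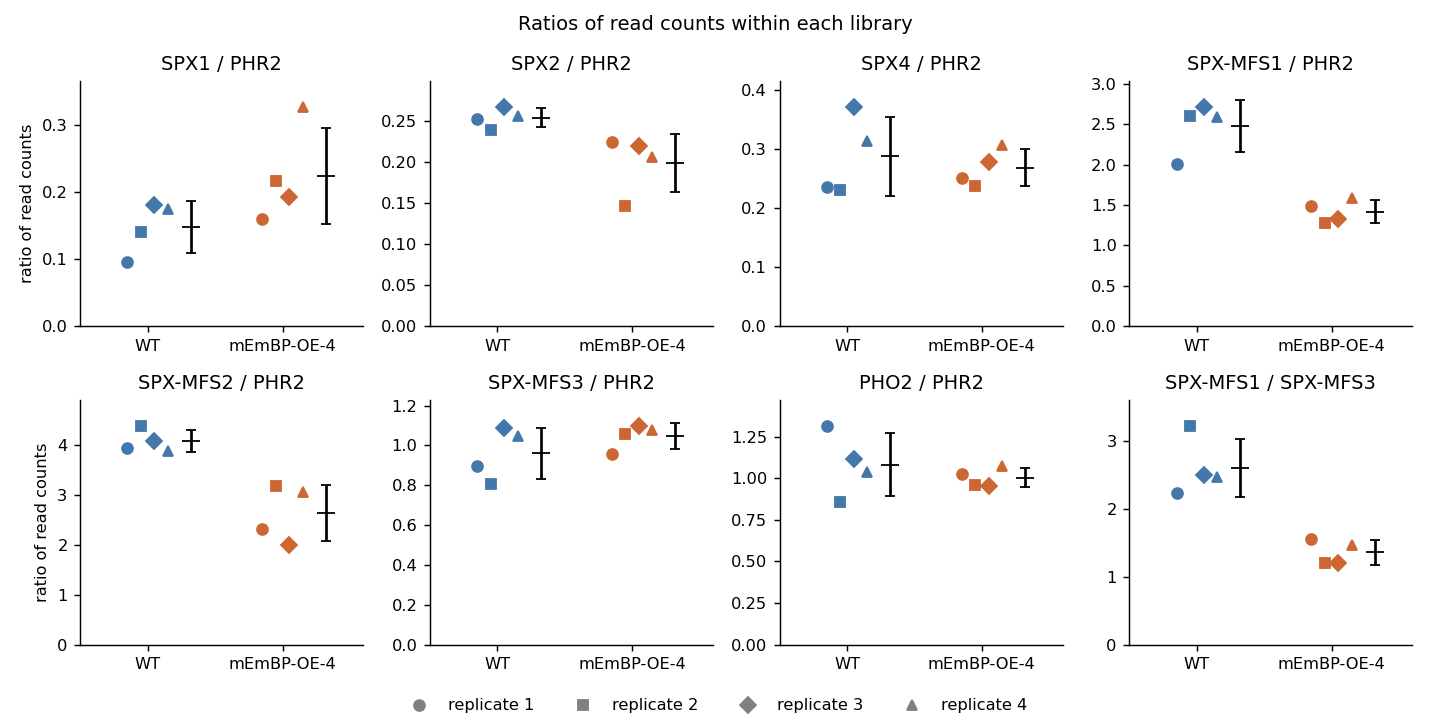
Ratio of read counts within each library, on a y axis that starts at 0, for 7 genes over PHR2 and for SPX-MFS1 over SPX-MFS3, by group on the x axis. Symbols are the 4 replicates, and the black bar is the mean with its SD. The groups are apart for SPX2, SPX-MFS1 and SPX-MFS2 over PHR2 and for SPX-MFS1 over SPX-MFS3, and they overlap in the other 4 panels.

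The other loci of phosphate transport and response were taken from lists of locus IDs written from general knowledge, which neither the table nor the reference pairs with names. Of 34 listed loci 33 were in the table and 20 were tested, of which 5 were called higher and 4 lower, against 20.1% and 19.1% of all tested genes. Their median log2 fold change was 0.11. The number called higher was 3 without WT replicate 2, 3 or 4, where 3612, 3401 and 3265 of all tested genes were called higher. With all libraries 4155 were. Library totals alone gave 2 called higher and 9 lower, where the median was -0.38 against -0.47 for all genes. With the replicate number as a block 6 were called higher and 5 lower, against 25.2% and 24.1% of all tested genes. As for the core genes, these counts lie near the background.

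On the list for PHT1 transporters, the plasma membrane proteins that take up phosphate, 4 of 13 loci were tested. Of these, 1 was called higher and 2 lower, against 20.1% and 19.1% of all tested genes. The higher locus had a mean of 0.0109 CPM in WT, from 2 counts in all, against 0.473 CPM in mEmBP-OE-4. It passed the filter on low counts only through the group where it is high, so it had to differ, and without it 4 of the other 19 tested loci of all lists were called higher. Os10g0444700, the lower locus of lowest p on all lists, was at 3.72, 4.08, 4.06 and 4.89 CPM in WT replicates 1 to 4. It was at 2.37, 2.30, 2.02 and 2.0 CPM in mEmBP-OE-4 replicates 1 to 4. The groups stand well apart, with a log2 fold change of -0.95 (SE 0.17, Benjamini-Hochberg adjusted p = 0.00220, edgeR).

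On the list for PHO1 proteins, SPX-domain exporters that load phosphate into the xylem, 2 of 3 loci were called higher and none lower, where 20.1% of all tested genes were called higher. DESeq2 called 3 higher, against 22.9% of all tested genes, and the replicate block 3, against 25.2%. With limma-voom 2 were called higher, against 19.9%, and none of these fits called any lower. At an unadjusted p under 0.05 the count was 3 higher and none lower (edgeR), and the share of all tested genes is not given there. These counts come from a list of 3 loci chosen with earlier results of these data known. The log2 fold changes ranged from 1.0 to 2.07, and the locus at 2.07 spread from 5.41 to 42.6 CPM among the mEmBP-OE-4 libraries. Only 1 was called higher without WT replicate 2, 3 or 4, and none was called on library totals alone (1 higher at an unadjusted p under 0.05, edgeR).

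The main-test counts of the remaining lists are read against the 20.1% of all tested genes called higher and the 19.1% called lower. Of 4 loci listed for other PHR factors and SPX6, 1 was called lower, at a log2 fold change of -1.97, and 3 did not pass. Of 5 tested loci listed as phosphate starvation targets, which serve membrane lipid replacement and phosphatase activity, 1 was called higher, at 0.47, and 4 did not pass. When any 1 library was left out other than the 2 numbered replicate 1, none of these 5 was called higher, although 1 had an unadjusted p under 0.05 in each of those fits (edgeR). With library totals alone none was called higher, also at an unadjusted p under 0.05, and 3 were called lower (edgeR), against 43.1% of all tested genes. With the replicate block 1 was called higher and 1 lower (edgeR), against 25.2% and 24.1%. The median of this list was -0.19 (-0.67 on library totals). Of 4 loci listed for transporter traffic, turnover and vacuolar efflux, 1 was called higher and 1 lower. The higher one, Os07g0673200, had the lowest p of the higher loci on all lists. It was at 9.91, 8.12, 11.5 and 12.1 CPM in WT replicates 1 to 4. It was at 20.2, 27.3, 19.9 and 22 CPM in mEmBP-OE-4 replicates 1 to 4, all above the WT libraries. Its log2 fold change was 1.10 (SE 0.16, Benjamini-Hochberg adjusted p = 0.000762, edgeR).

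**Figure D5:**
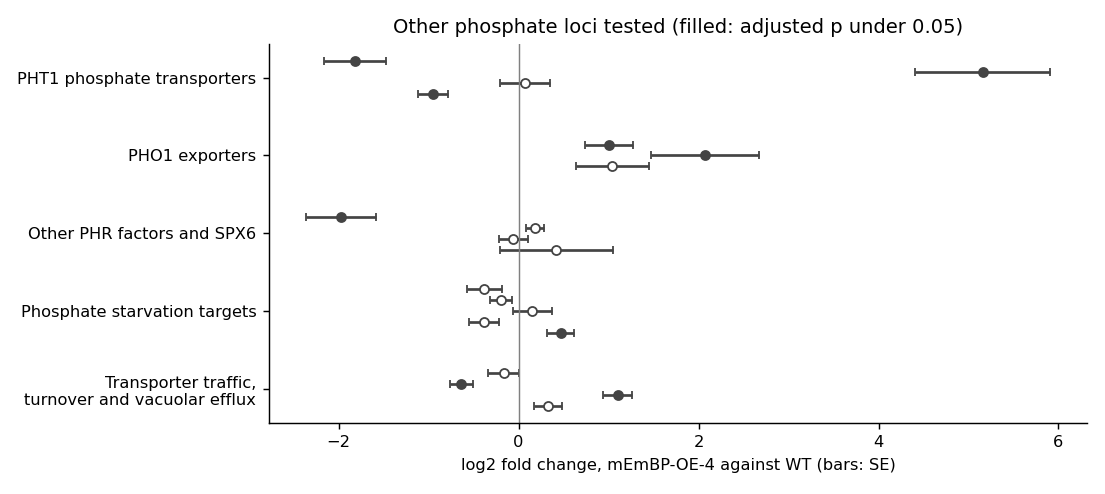
Log2 fold change, mEmBP-OE-4 against WT, on the x axis for the 20 tested loci of the 5 phosphate lists on the y axis. Each point is a locus, bars are SE, and filled points have an adjusted p under 0.05. Both directions occur, with 5 loci called higher and 4 lower, and the point farthest right is the transporter locus with 2 counts in all in WT, which passed the filter only through mEmBP-OE-4.

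The tested genes whose profiles were most like those of the called genes were found by the Pearson correlation of log2 CPM over the 8 libraries, given as a description because the libraries form 2 groups and share their scaling. For SPX-MFS1 the most similar locus was Os04g0599800, with r = 0.987, and 562 of 20682 other tested genes had an r above 0.9. For SPX-MFS3, the called gene of lowest p among the higher ones, it was Os02g0564300, with r = 0.983, and 891 genes had an r above 0.9. The files pair neither ID with a name.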

How the data were processed

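The authors deposited raw read counts per gene for 8 libraries, as whole numbers in 1 column per library. Per the submitters' processing notes, FastQC, Trim Galore, STAR 2.5.3a, DESeq2 and build IRGSP-1.0 were used, in roles that are not stated. The sources used here do not give the counter, strand setting or annotation, so overlapping, antisense and closely related genes carry an unknown assignment error.

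Libraries were grouped by title. Rows with other identifiers than Os loci (0.0193% to 0.0393% of counts) were kept. Counts were filtered with filterByExpr (minimum count 10, total 15), scaled by TMM and tested over 20690 genes with edgeR 4.0.16 (R 4.3.3, quasi-likelihood F test, no covariate, Benjamini-Hochberg, threshold 0.05). SE is the absolute log2 fold change over the square root of F. The procedure was tested on simulated data. Alternatives were DESeq2 1.42.0, limma-voom (limma 3.58.1), other scalings and filters, the replicate block, removal of the 50 most abundant genes and leaving out each library.

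All core genes were named. For the lists, the locus of lowest p in each direction was named, and for likeness the 1 locus of highest r for the called gene of lowest p in each direction. Members and lists were chosen with earlier results of these data known. Names come from the selection rule. For PHR2 and SPX1 to SPX5 the RefSeq gene table (ASM3414082v1) gives the chromosome that the locus ID names in 6 of 6 cases, and it holds none of the 10 IDs. Promoter motifs were not analysed here.

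Replicate pairs within a group differed beyond counting noise, with a chi-square of 6.52 to 119 per degree of freedom. Libraries with the same number deviated together from their group means, with correlations of 0.641, 0.347, 0.189 and 0.104 over 20690 genes, all over 0.1, the level required here for pairing. Another matching of the numbers gave a mean of 0.347 against 0.320, and 3 of the 4 WT libraries correlated best with their own number. The labels do not say what a number shares. The main test has no block, and the blocked value stands beside a result where it changes a call.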

Additional observations from a re-analysis of the deposited data

Results flagged for a closer look

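Dixon's criterion was applied to 18 groups of 4 values, and chance flags about 1 in 20 groups. It picked out 2, both for WT replicate 1. SPX1 was at 5.39 CPM in that library against 8.96 to 9.43 CPM in the other WT libraries. SPX5 was at 0.0164 CPM there, from 1 count, against 0 in the others. With 0 in all the others, any count is flagged whatever its size, so nothing is read from this flag.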

How the results depend on the processing

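Of 228 values under 19 alternatives, 182 kept their direction and side of the threshold, or stayed within 1.5 times for a count. Leaving out 1 library gave 0 to 2 core genes called higher and 1 lower in each fit, and 3 to 7 list loci called higher and 4 to 5 lower. Over all tested genes these fits called 3265 (without WT replicate 4) to 4255 (without WT replicate 1) higher, against 4155 in the main fit. They called 3134 (without WT replicate 4) to 4298 (without mEmBP-OE-4 replicate 1) lower, against 3954. With library totals alone 0 core genes were called higher and 4 lower, and 2 list loci higher and 9 lower, while PHR2 (-0.26), SPX4 (-0.34), SPX-MFS3 (-0.13) and PHO2 (-0.37) turned in sign on the log2 scale. With library totals and the 50 most abundant genes removed, the counts were 0 and 3 core genes and 3 and 8 list loci, and PHR2 (-0.12), SPX4 (-0.20) and PHO2 (-0.22) turned, where the median of all genes was -0.33. That fit called 2304 of all 20691 tested genes higher and 7444 lower. In both fits the median of all genes lies below 0, which moves each value downward. Under the stricter filter (5 CPM or more in 4 libraries) only 16 list loci were tested, against 20 in the main fit, and 3 were higher and 4 lower. There 2602 of all 12157 tested genes were called higher and 2618 lower. The replicate block gave 2 core genes lower, SPX-MFS2 being added at -0.43, and changed no other core call, and 6 list loci were higher and 5 lower there. With both replicate 1 libraries left out, chosen after the data were seen, 2 core genes were higher and 1 lower, with SPX1 at 0.79 (adjusted p = 0.0186, edgeR). There 4376 of all 20612 tested genes were called higher and 4227 lower. Low counts limit what can be read of SPX3 and SPX5, the latter with 1 count in WT and 10 in mEmBP-OE-4. The lowest of the tested genes, SPX1, had 1557 counts over the WT libraries.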
